A study of Mus musculus with 6 samples.

Results

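AMP-activated protein kinase (AMPK) genes were read here through H3K27ac, the acetylation of histone H3 that marks active promoters and enhancers. The 9 genes were the 7 that encode AMPK subunits, Prkaa1, Prkaa2, Prkab1, Prkab2, Prkag1, Prkag2 and Prkag3, and the 2 upstream kinases Stk11 (LKB1) and Camkk2. Their members were the rows of both deposited peak tables whose nearest annotated gene was one of these names, at promoters and at a distance. That gave 35 of 46988 peaks in the control table and 29 of 40721 in the detrained table, and every gene had at least 1 peak in each. The question was whether acetylation at these genes differed in quadriceps after exercise training was stopped.

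The chromatin came from quadriceps of male wild type C57BL/6 mice (C57BL/6J in the study's methods). Detrained mice had running wheels for 4 weeks from 8 weeks of age and were rested for 72 h before harvest, and control mice were sedentary in single cages without wheels. Each group had 2 H3K27ac libraries, C2 and C3 in control and Ex1 and Ex2 in detrained mice, and 1 input library. The H3K27ac libraries held between 20805019 and 22400894 tags, the control input 10812470 and the detrained input 21298438. By the study's methods each library came from the quadriceps of a single animal, so the spread within a group is between 2 mice. Library values rest on deposited log2 values that were shrunken for weak peaks, so this spread can be understated. With 2 libraries a group an exact permutation test cannot go below a two-sided p of 0.333, and the tables were normalized separately, so no test between groups was made. Values are given per library, and a difference was counted only where the detrained libraries were both above, or both below, the control libraries.

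Muscle identity was checked first. Of 10 muscle fibre marker genes, 9 had a peak in both tables, and Tnnt3, the remaining marker, had none in either. Peaks were also listed for all 4 endothelial, 3 fibro-adipogenic, 2 satellite cell and 2 smooth muscle markers, and for neither of the 2 adipocyte markers, Adipoq and Plin1. Summed tags per 10000000 over the fibre markers were 6999 (C2), 8846 (C3), 8637 (Ex1) and 8077 (Ex2). Endothelial markers summed to 1642, 1991, 2340 and 1755, with overlapping groups. Sums over the 4 immune markers were 51.2, 48.9, 160 and 130, higher in both detrained libraries, with Ptprc listed only in detrained and Cd68 in neither. Fibro-adipogenic markers summed to 1578, 1558, 1838 and 1914, satellite cell markers to 179, 174, 228 and 247, and smooth muscle markers to 231, 245, 283 and 270.3, each sum higher in both detrained libraries. Not every marker went with its sum. These sums depend on which gene a peak was given to. Myh4, a fast myosin heavy chain, had 75.3, 83.7, 814 and 788 tags, but its main detrained peak of 800.4 pooled tags lay over a control peak of 1257 tags that was annotated to Myhas, so that gap is not a measure of acetylation. A detrained Pecam1 peak likewise lay over a control peak annotated to Tex2. Without Myh4 the fibre sums were 6924, 8762, 7822 and 7289. Among the other fibre markers Mb was higher (979.8, 1172, 1451 and 1319), while Ryr1 (482, 616, 476 and 439.5) and Cacna1s (1053, 1288, 971 and 900.4) were lower in both detrained libraries. Acta2, a smooth muscle marker, was lower in both detrained libraries (132, 142, 126 and 113), and Myf5 of satellite cells and Dcn of fibro-adipogenic cells overlapped. The part of these cell type markers in the results at AMPK genes was not tested, and in bulk muscle fewer cells of a type and less acetylation per cell cannot be told apart.

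AMPK is a trimer that senses falling cellular energy. A catalytic α subunit phosphorylates targets, a β subunit holds the complex together and binds glycogen, and a γ subunit binds AMP, ADP or ATP. LKB1 phosphorylates the activation loop of the α subunit and is the main AMPK kinase in contracting muscle, while CaMKK2 does so in response to calcium. In fast muscle the complexes with α2, β2 and γ3, the products of Prkaa2, Prkab2 and Prkag3, are characteristic, whereas α1, β1 and γ1 are used widely across tissues.

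The genes were marked in unlike ways, as the map of peaks by distance from the start shows. Prkaa2, Prkag3, Stk11 and Prkab2 carried long acetylated domains across their starts, of 18065, 12778, 6558 and 4698 bp in control mice. Prkag1 and Stk11 had a single peak each in both tables. Prkag2 had 9 peaks in each table, spread over a gene of 243.548 kb with several starts. Prkab1 had 7 control and 5 detrained peaks, but 5 and 3 of them lay outside the gene.

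**Figure D1:**
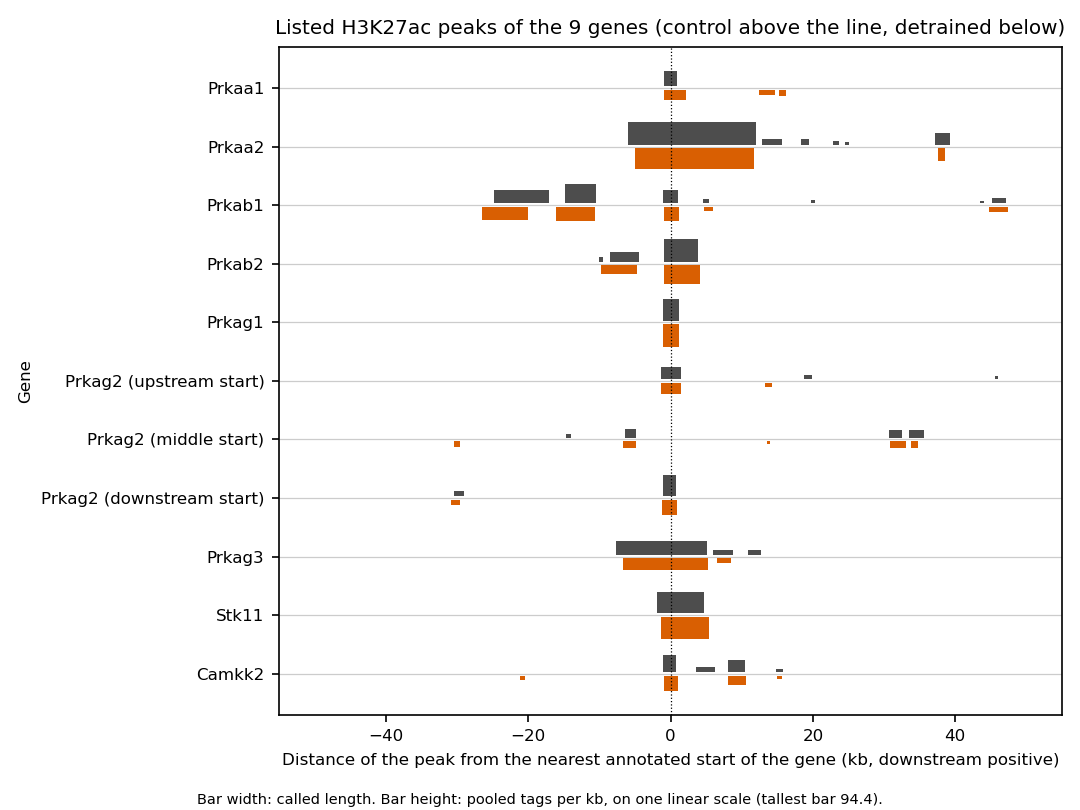
Map of the listed H3K27ac peaks of the 9 genes by distance from the nearest annotated start in kb, with control peaks (grey) above each line and detrained peaks (orange) below. Bar width is the called length and bar height the pooled tags per kb per 10000000 tags on a linear scale, and Prkag2 is drawn at each of 3 starts. The widest bars are those of the Prkaa2 domain (18065 bp above the line, 16716 bp below), and the middle Prkag2 start has no bar over it.

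By position the control peaks comprised 6 promoter, 25 intron, 2 exon or UTR and 2 intergenic peaks, and the detrained peaks 5, 21, 2 and 1. Of the 35 control peaks 11 overlapped no detrained peak, 31.4% against 27.9% of all control peaks. Of the 29 detrained peaks 6 overlapped no control peak, 20.7% against 18% of all detrained peaks. Both shares were near the background. The peaks without a counterpart held 5.66 to 70.1 pooled tags per 10000000 in control and 5.1 to 43.8 in detrained mice. Among them a Prkaa2 intron peak (70.1) and a Camkk2 intron peak (50.2) were above the median of 45.5 over all control peaks, and the detrained ones were all below the detrained median of 57.9.

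Peaks of both tables that overlapped singly, with at least 50% of each covered, were taken as shared, which gave 21 shared peaks at these genes. Density was the number of tags per kb of called peak per 10000000 tags, with 0.5 tags added. Both detrained libraries were below both control libraries at 8 of the 21 shared peaks, where 27.2% of all 26432 shared peaks were so, and above them at 1, where 21.3% of all were so. At 12 the groups overlapped. The log2 ratio of density, detrained over control, had a median of -0.15 and ran from -0.57 to 0.21, against a median of -0.026 over all shared peaks. No shared peak of these genes differed 2-fold, where only 20 of all 26432 shared peaks did. At 9 the ratio was smaller than the SD within groups, a share that was not computed over all shared peaks. At each of the 12 overlapping peaks the omission of some single library set the groups apart. With 2 libraries a group this must be so, and it says nothing about these peaks.

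A density depends on how far a peak was called, so the same peaks were also compared by their whole tags. In tags per peak 7 were below, where 28.8% of all shared peaks were so, 4 above, where 24.7% were so, and 10 overlapping. The median log2 ratio in tags per peak was -0.082, against -0.019 over all shared peaks. The sign of the ratio differed between the measures at 10 of the 21 shared peaks, the Prkaa1 start among them, and at 48.2% of all. Lower by both measures were 4 of the 21 shared peaks, against 9.6% of all shared peaks, namely the starts of Prkab2, Prkag3 and the downstream start of Prkag2, and a Camkk2 intron peak. Higher by both measures was 1, at the Prkag1 start, against 6.37% of all.

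**Figure D2:**
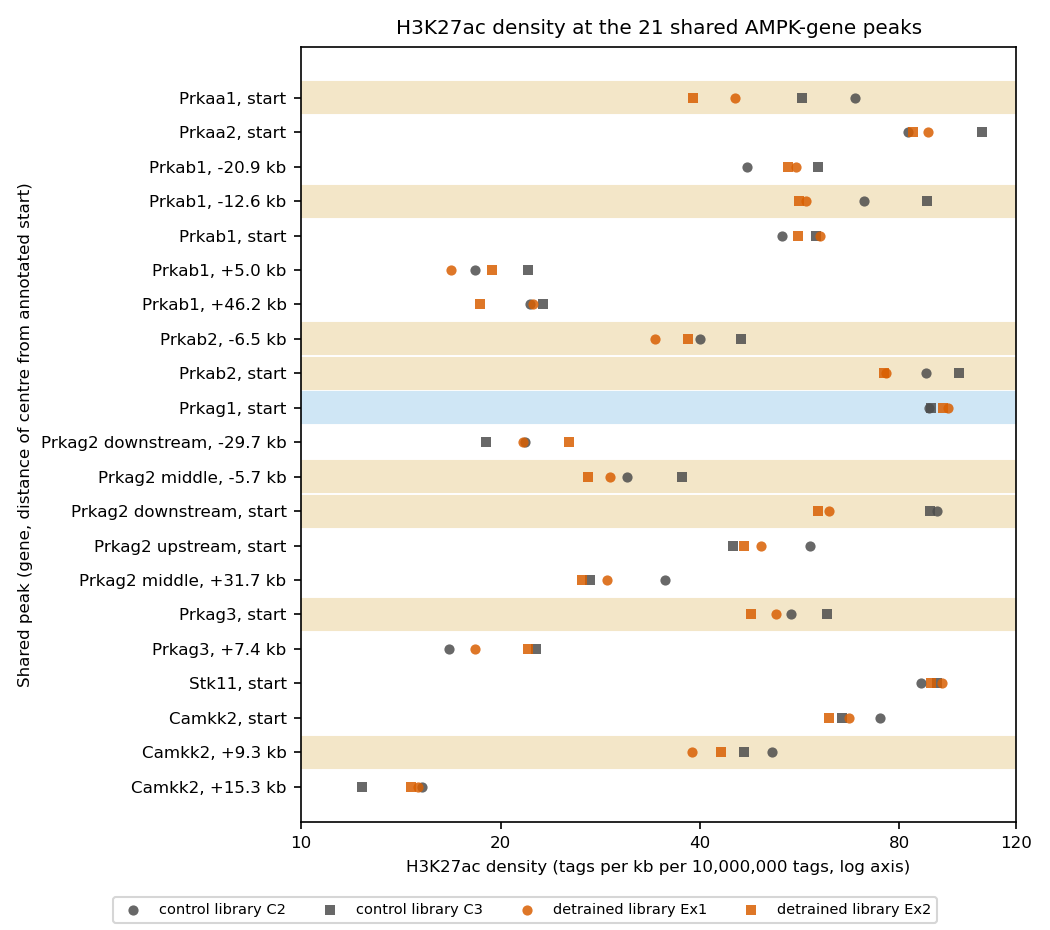
H3K27ac density in tags per kb per 10000000 tags (log axis) at each of the 21 shared peaks, 1 point per library, with control libraries in grey and detrained libraries in orange. Shaded rows mark peaks where the groups did not overlap, beige for detrained below control (8 peaks) and blue for detrained above control (1 peak, at Prkag1).

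**Figure D3:**
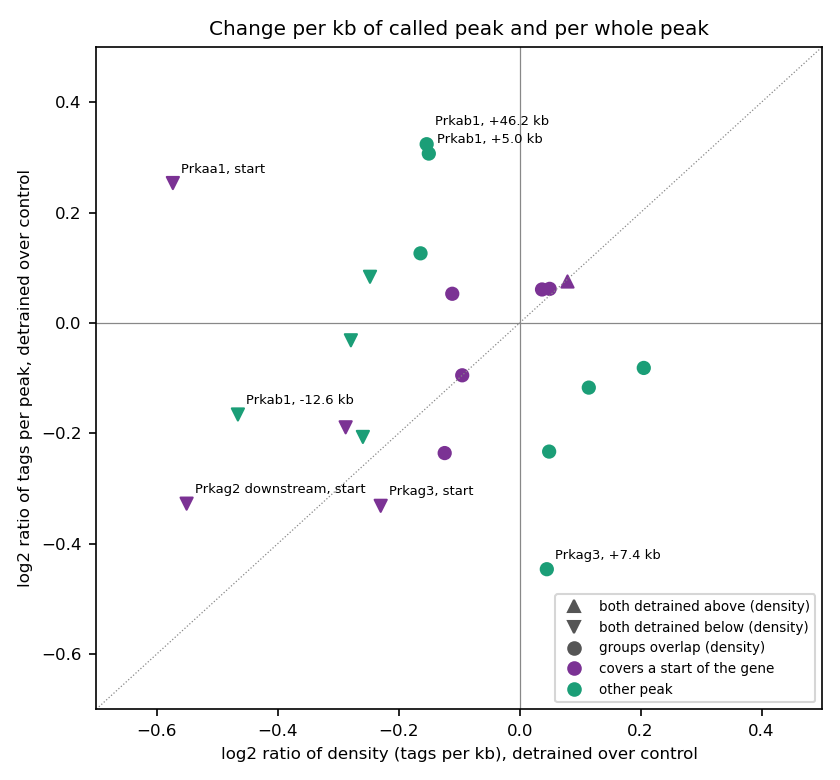
The log2 ratio of tags per peak against the log2 ratio of density at the 21 shared peaks, detrained over control, with peaks over a start of the gene in purple, other peaks in green and marker shapes for the side of the detrained libraries in density. On the dotted line both ratios are equal. Prkaa1 sits at -0.57 in density and 0.25 in tags per peak, and the downstream Prkag2 start at -0.55 and -0.33.

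Of the catalytic subunits, Prkaa2, which encodes α2, the main α subunit of skeletal muscle, carried the strongest acetylation. The domain over its start (mm10, chr4:105097867-105115932, from upstream of the gene into its body) held 1706 pooled tags per 10000000 in control and 1438 in detrained mice, at the 99.9 percentile of all control peaks. Its density was 82.4 (C2), 106.8 (C3), 88.5 (Ex1) and 83.8 (Ex2). C3 stood above the other libraries and the groups overlapped, with a log2 ratio of -0.12 ± 0.19 (SD within groups, n = 2 a group), or 0.062 without C3 and -0.31 without C2. In tags per peak the ratio was -0.24 and both detrained libraries lay lower. Across the domain 7 MEF2 sites, the binding motif of a muscle transcription factor family, were found on either strand, 0.387 per kb against a median of 0.145 over the 5497 control peaks longer than 4 kb. The start domains of Prkag3, Stk11 and Prkab2 and the longer Tmem233 peak of Prkab1 held 0 such sites, and 2 shorter domains, the Fmo5 peak of Prkab2 and the other Tmem233 peak of Prkab1, held 2 each, or 0.488 and 0.450 per kb, more than Prkaa2.

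Downstream of this domain the control table listed 5 more Prkaa2 intron peaks. The detrained table kept only the one centred 38149 bp from the start (38035 bp in its own table), with 56.3 pooled tags against 98.9, and it just missed being a shared peak since 49.3% of the control peak was covered. The other 4, between 14204 and 24765 bp from the start, held 5.66 to 70.1 tags and had no detrained counterpart. Summed over all its peaks Prkaa2 had 1671 and 2180 tags in the control libraries and 1533 and 1459 in the detrained, or 1925 ± 360 against 1496 ± 52.3 (SD, n = 2). Both detrained libraries were below both control libraries (log2 ratio -0.35), but per kb of covered length the ratio was 0.17 with overlapping groups. Without C3 the ratio was -0.16 and without C2 -0.54, and C3 was also the higher control library for the fibre markers.

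Prkaa1, which encodes the widely expressed α1, had a single promoter peak in control mice (chr15:5142987-5144744). Its density was 68.5 (C2), 57.1 (C3), 45.1 (Ex1) and 39.1 (Ex2), lower in both detrained libraries (log2 ratio -0.57 ± 0.17), but in tags per peak the ratio was 0.25 and both detrained libraries were higher. The called peak was longer in detrained mice, 3117 bp against 1757 bp, and reached further into the first intron. The detrained table also listed 2 intron peaks with no control counterpart, at chr15:5156340-5158520 with 43.8 pooled tags and chr15:5159060-5160069 with 27.1. With them the summed tags were 120 and 100 in control and 211 and 193 in detrained libraries, or 110 ± 14.1 against 202 ± 12.9, both detrained libraries above both control libraries. That log2 ratio of 0.88 was higher than 95.8% of all genes with peaks in both tables, yet per kb of covered length it was -0.96. The listed peaks of Prkaa1 covered 1.757 kb in control and 6.306 kb in detrained mice.

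Of the scaffold subunits, Prkab2, which encodes the β2 of muscle complexes, had its main peak over the start and first intron (chr3:97657317-97662015). Its density was 87.8 (C2), 98.3 (C3), 76.4 (Ex1) and 75.8 (Ex2), and the groups did not overlap (log2 ratio -0.29 ± 0.082). In tags per peak the ratio was -0.19, again with both detrained libraries lower. This was 1 of 3 shared peaks that kept both detrained libraries below both control libraries in every alternative that could change the side. Those alternatives were scaling, centring, more added tags, the deposited log2 values and tags per peak. A second peak lay over the neighbouring gene Fmo5, centred 6488 bp upstream, with densities of 40.1, 46.2, 34.2 and 38.3 (log2 ratio -0.25). There the ratio turned to 0.084 with overlap in tags per peak, and it was -0.14 without C3. Summed over all peaks Prkab2 had 585 and 662 tags in control and 561 and 579 in detrained libraries (log2 ratio -0.13), -0.038 without C3 and -0.22 without C2, and the groups overlapped once libraries were scaled to the tags in all peaks.

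Prkab1, which encodes β1, had a promoter peak (chr5:116023392-116025418) with densities of 53.2 (C2), 59.97 (C3), 60.7 (Ex1) and 56.3 (Ex2), overlapping between groups (log2 ratio 0.050). Most acetylation annotated to it lay elsewhere. Peaks overlapping the gene itself held 13.8% of its tags in control and 16.5% in detrained mice, and the rest lay over Tmem233 upstream and Cit downstream, where nearest-start annotation does not show which gene a peak serves. The Tmem233 peak of higher density (chr5:116034836-116039284) had densities of 70.8, 88.2, 57.9 and 56.5, lower in both detrained libraries (log2 ratio -0.47 ± 0.16), while in tags per peak (-0.17) the groups overlapped. Without C3 the density ratio was -0.31. The longer one (chr5:116041458-116049280), which held more tags, 419 against 353 pooled in control mice, had 47.0, 60.3, 55.9 and 54.3, with both detrained libraries between the control libraries, but in tags per peak both were lower (-0.23). The weaker intron peaks in Cit (chr5:115977319-115979202) and in Prkab1 itself (chr5:116018963-116019918) each had a density ratio of -0.15 with overlap, and in tags per peak ratios of 0.32 and 0.31 with both detrained libraries higher. Summed over all peaks Prkab1 had 863 and 1065 tags in control and 880 and 847 in detrained libraries, and the groups overlapped (log2 ratio -0.15, or -0.30 without C2 and 0.00079 without C3).

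Of the nucleotide-binding subunits, Prkag2, which encodes γ2, differed between its starts. The RefSeq promoter table holds 3, which lead to γ2 proteins with longer or shorter N-terminal ends, and predicted transcript models begin at further positions that were not examined here. The upstream start (chr5:25100642, minus strand) and the downstream start (chr5:24908509) each lay in a peak in both tables, and the middle start (chr5:24995753) in neither. The bases just upstream of the downstream and middle starts are shown because they are the marked and the unmarked start within the same gene. Those of Prkab2 are added, whose start peak was also lower in every alternative that could change the side. The sequences are from RefSeq promoter windows on GRCm38.p6 (the mm10 build). Each holds 250 bases 5′ to 3′ on the gene's strand up to the base before the start, and the capitals mark CpG dinucleotides.
Prkag2 downstream start, chr5:24908510-24908759, minus strand: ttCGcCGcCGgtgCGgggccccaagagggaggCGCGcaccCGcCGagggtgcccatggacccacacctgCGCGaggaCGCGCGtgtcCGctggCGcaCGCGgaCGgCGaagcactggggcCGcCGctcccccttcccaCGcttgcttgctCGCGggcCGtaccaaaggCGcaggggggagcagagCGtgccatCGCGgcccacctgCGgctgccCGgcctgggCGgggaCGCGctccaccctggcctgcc
Prkag2 middle start, chr5:24995754-24996003, minus strand: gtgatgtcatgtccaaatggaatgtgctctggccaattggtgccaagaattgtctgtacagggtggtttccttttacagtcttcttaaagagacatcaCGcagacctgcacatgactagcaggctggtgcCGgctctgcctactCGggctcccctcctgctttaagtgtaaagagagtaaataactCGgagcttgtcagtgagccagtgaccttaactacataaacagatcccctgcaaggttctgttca
Prkab2 start, chr3:97657962-97658211, plus strand: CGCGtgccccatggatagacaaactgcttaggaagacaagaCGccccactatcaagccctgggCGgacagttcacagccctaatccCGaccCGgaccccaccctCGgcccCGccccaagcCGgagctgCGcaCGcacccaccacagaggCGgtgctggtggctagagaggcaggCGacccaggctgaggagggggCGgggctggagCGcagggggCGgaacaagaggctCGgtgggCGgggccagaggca

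The marked Prkag2 downstream start had 34 CpG dinucleotides in these bases and a G and C content of 77.2%, and the unmarked middle start 4 and 48.4%. Prkab2 had 18 and 69.2%. The Prkag3 start, whose peak was also lower in the same alternatives, is not shown and had 9 and 52.4%. Over all 11 promoter windows of the 9 genes (300 bases, 50 of them past the start), the G and C content ran from 50.3% to 82%, and in 10 it was above the median of 52.7% of all 32851 RefSeq windows. The remaining window was that of the middle Prkag2 start.

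At the downstream start (chr5:24907771-24909576) density was 91.1 (C2), 88.9 (C3), 62.6 (Ex1) and 60.3 (Ex2). The replicates lay close together and the groups far apart, with a log2 ratio of -0.55 ± 0.032, a change of -31.7%. Only 2.72% of all shared peaks had a lower ratio. In tags per peak the ratio was -0.33 and both detrained libraries were again lower, as they were in every alternative that could change the side. At the upstream start (chr5:25099111-25102015) density was 58.7, 44.9, 49.5 and 46.7, and both detrained libraries lay between the control libraries (log2 ratio -0.095 ± 0.20, or -0.29 without C3 and 0.097 without C2). This peak also covers the start of 2900005J15Rik.

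The other 3 shared Prkag2 peaks were weaker intron peaks. At chr5:25000664-25002149, near the middle start, density was 31.1, 37.6, 29.2 and 27.2, lower in both detrained libraries (log2 ratio -0.28 ± 0.15), but in tags per peak (-0.032) the groups overlapped, and without C3 the density ratio was -0.14. The peaks at chr5:24963177-24965023 and chr5:24937501-24938998 had log2 ratios of -0.16 and 0.21 with overlapping groups. The first ran from -0.35 without C3 to 0.024 without C2 and was 0.13 in tags per peak, and the second ran from 0.088 without Ex2 to 0.32 without Ex1 and was -0.082 in tags per peak. Of the unshared peaks, 3 control and 3 detrained intron peaks had no counterpart, none with more than 23.2 pooled tags. A stronger control peak (chr5:24960206-24962304, 66.1 tags) overlapped a detrained peak of 28.7 tags but was not shared, since 49.1% of it was covered. Summed over all peaks Prkag2 had 550.2 ± 59.6 tags in control and 485 ± 11.5 in detrained mice, both detrained libraries being lower (log2 ratio -0.18, or -0.068 without C2 and -0.29 without C3), but the groups overlapped once scaled to the tags in all peaks.

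Prkag2 had the most peaks of the 9 genes, and its strongest shared peak was compared with those of 12492 other genes by Euclidean distance in log2 density over the 4 libraries. The nearest were Pwwp2a at 0.057, Zc3hav1 at 0.073 and Zfp746 at 0.075. Pwwp2a had densities of 89.3 (C2), 86.8 (C3), 62.1 (Ex1) and 61.7 (Ex2). The likeness was chosen for, and the 4 libraries are shared by all these genes.

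Prkag3, which encodes the γ3 found almost only in fast muscle, carried a domain of 12778 bp that ran from its gene body upstream to Wnt6 (chr1:74743846-74756624). Its density was 54.9 (C2), 62.3 (C3), 52.1 (Ex1) and 47.7 (Ex2). Both detrained libraries were below both control libraries (log2 ratio -0.23 ± 0.11), with Ex1 near C2, and in tags per peak the ratio was -0.33 with the groups apart. The order held in every alternative that could change it, and without C3 the density ratio was -0.14. An intron peak 7377 bp downstream had densities of 16.7, 22.6, 18.3 and 21.97 and overlapping groups, while in tags per peak it was lower in both detrained libraries (-0.45). Another control peak, over Cyp27a1, had no detrained counterpart. The summed tags were 837 ± 79.2 in control and 633 ± 31.7 in detrained mice (log2 ratio -0.40), both detrained libraries being lower, but per kb of covered length (-0.074) the groups overlapped.

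Prkag1, which encodes the widely used γ1, had 1 promoter peak of nearly the same called length in both tables, 2184 and 2181 bp (chr15:98830379-98832563). Its density was 88.6 (C2), 89.2 (C3), 94.7 (Ex1) and 93.0 (Ex2). No other shared peak of the 9 genes had its detrained libraries both higher in density, here by a log2 ratio of 0.078 ± 0.014, or 5.58%. With the deposited log2 values used directly the ratio was 0.0072 and the groups overlapped. The peak also reaches the last exon of Kmt2d, so the 2 genes cannot be told apart there.

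Of the upstream kinases, Stk11, which encodes LKB1, had a single peak over the start and first intron (chr10:80113949-80120507), with 581 pooled tags in control and 606 in detrained mice. Its density was 86.2 (C2), 91.2 (C3), 92.8 (Ex1) and 89.2 (Ex2). The groups overlapped, with a log2 ratio of 0.037 ± 0.049, and the called lengths of 6558 and 6666 bp were alike.

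Camkk2, the calcium-dependent kinase, had a promoter peak (chr5:122778575-122780408) with densities of 74.9, 65.6, 67.2 and 62.7 and overlapping groups (log2 ratio -0.11 ± 0.11, and 0.053 in tags per peak). Without C3 (-0.21) or Ex1 (-0.16) the detrained values were lower with the groups apart, and without C2 the ratio was -0.016. An intron peak 9271 bp downstream (chr5:122768900-122771379) had 51.3 (C2), 46.7 (C3), 38.9 (Ex1) and 43.0 (Ex2). There both detrained libraries were lower in density (log2 ratio -0.26 ± 0.10) and in tags per peak (-0.21), but the groups overlapped once libraries were scaled to the tags in peaks. A weak exon peak had a log2 ratio of 0.11 with overlap. The control table held an intron peak with 50.2 pooled tags that had no detrained counterpart, and the detrained table a peak of 10.4 tags inside Anapc5. The tables gave a further peak inside the Camkk2 body, in both groups, to P2rx4, and it was not counted here. Summed over all peaks Camkk2 had 332 and 293 tags in control and 261 and 260.0 in detrained libraries (log2 ratio -0.26, or -0.17 without C2), but over shared peaks alone the groups overlapped.

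**Figure D4:**
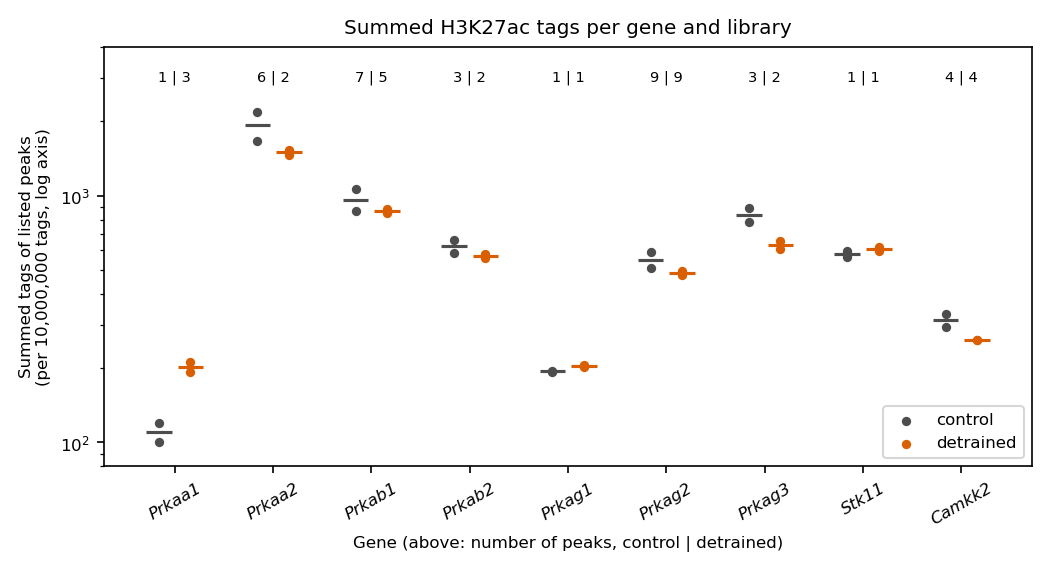
Summed tags of all listed peaks per gene and library, per 10000000 tags on a log axis, with 1 point per library and a bar at the group mean (n = 2), and the number of peaks in control and detrained mice above each gene. Prkaa2 is highest at 1925 in control and 1496 in detrained mice, and Prkaa1 is the gene with the widest gap upwards, 110 against 202.

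Per gene, both detrained libraries were below both control libraries in summed tags for 5 of the 9 genes, Prkaa2, Prkab2, Prkag2, Prkag3 and Camkk2, where 35.2% of all 13525 genes with peaks in both tables were so. They were above for 2, Prkaa1 and Prkag1, where 24.3% of all genes were so, and overlapped for Prkab1 and Stk11. The median log2 ratio of the 9 genes was -0.15, against -0.046 over all genes. Per kb of covered length the direction turned for Prkaa1, Prkaa2 and Camkk2. Scaled to the tags in all peaks, the groups overlapped for Prkab2 (-0.077) and Prkag2 (-0.13), while both detrained libraries were lower for Prkab1 (-0.10) and higher for Stk11 (0.11). Those of Prkab2 overlapped also with centring on all shared peaks (-0.10) and over shared peaks alone (-0.10).

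Densities over the starts are per kb of called length and are given here in order, although the called lengths differed widely between genes and, for Prkaa1, between groups. In control mice Prkaa2 (geometric mean density 93.8), Prkab2 (92.9), the downstream Prkag2 start (89.96), Prkag1 (88.9) and Stk11 (88.7) led and did not differ beyond the spread of Prkaa2. Camkk2 followed at 70.1, apart from Stk11, then Prkaa1 at 62.5, Prkag3 at 58.5, Prkab1 at 56.5 and the upstream Prkag2 start at 51.4, each overlapping with its neighbour. In detrained mice Prkag1 (93.9), Stk11 (91.0) and Prkaa2 (86.1) came first, each apart from the next, then Prkab2 at 76.1, Camkk2 at 64.9, the downstream Prkag2 start at 61.4, Prkab1 at 58.4, Prkag3 at 49.8, the upstream Prkag2 start at 48.1 and Prkaa1 at 42.0. The Prkaa1 start peak was called longer in detrained mice, and its tags per peak were higher there (log2 ratio 0.25). Only the downstream Prkag2 start with Prkab1, and Prkag3 with the upstream Prkag2 start, overlapped as neighbours there. The downstream Prkag2 start thus moved from among the 5 leading starts to overlap with Prkab1. The 10 peaks over starts had a median log2 ratio of -0.12 and the 11 others -0.15. In each set 4 were lower in both detrained libraries, where 27.2% of all shared peaks were so.

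Short motifs were searched in the 11 promoter windows. The AP-1 motif TGANTCA, the estrogen-related receptor motif TCAAGGTCA, the MEF3 motif TCAGGTTTC, bound by muscle homeodomain factors, the TATA box TATAAA and the MEF2 site matched none of them on either strand, where 7.81%, 0.423%, 0.429%, 13.6% and 3.19% of all 32851 windows hold each. The shorter nuclear receptor motif AGGTCA, which is part of the estrogen-related receptor motif, matched only the unmarked middle Prkag2 start (16.3% of all windows). The E-box CAGCTG matched only Prkag3 (16.3% of all windows), and the cAMP response motif TGACG matched Prkaa2, Prkag1 and Stk11 (20.8% of all windows). In the central 300 bases of the non-promoter peaks, AGGTCA was found in 8 of 29 control peaks against 20.4% of all control peaks of that kind, and in 7 of 24 detrained peaks against 20%. TGACG was found in 8 of 29 control peaks against 12.2% and in 4 of 24 detrained peaks against 12.5%. CAGCTG was found in 4 of 29 against 19.5% and in 6 of 24 against 19.8%, and TGANTCA in 2 of 29 against 10.5% and 1 of 24 against 11.2%. The MEF2 site was found in 1 of 29 against 5.43% and in 0 of 24 against 5.81%. Both intron peaks that Prkaa1 had only in detrained mice held AGGTCA, and the first also held TCAAGGTCA, found in 0.921% of such detrained peaks.

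Around the trimer, a list of 51 AMPK pathway genes was read by the strongest shared peak of each gene, and 47 had a peak in both tables and 41 a shared peak. Both detrained libraries were above both control libraries in 12, where 21.9% of all 12493 genes were so, and below in 11, where 28.7% were so, with a median log2 ratio of 0.017 against -0.029 over all genes. In tags per peak 7 were above, against 19.3% of all genes, and 12 below, against 29%, with a median log2 ratio of -0.069 against -0.040. Of the 10 AMPK-related kinases with a shared peak, 5 were above and 1 below in density, but 1 (Sik1) was above and 4 (Sik2, Sik3, Mark2 and Nuak2) below in tags per peak. Of 5 LKB1 partners and other upstream kinases 1 was above and 2 below in density, and 1 and 0 in tags per peak. Of 8 metabolic targets the counts were 1 and 2 in density and 3 and 1 in tags per peak. Of 10 growth, autophagy and mitochondrial targets they were 3 and 3, then 0 and 4. Of 8 transcriptional regulators they were 2 and 3 in each measure, with Sirt1 above only in density and Ppargc1a only in tags per peak.

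The largest differences in density on that list again depended on the called length. Sik2, a salt-inducible kinase that LKB1 activates, had densities of 65.1 (C2), 70.9 (C3), 102.5 (Ex1) and 96.8 (Ex2) (log2 ratio 0.55), but in tags per peak it was -0.12 and lower in both detrained libraries. Cab39, the MO25 partner in the LKB1 complex, had 81.6, 88.9, 117.1 and 111.6 (log2 ratio 0.43), with overlap in tags per peak (0.031). Sik3, a relative of Sik2, had 61.8, 61.1, 84.1 and 76.0 (log2 ratio 0.38), and -0.12 in tags per peak. Downwards, Crtc2, a coactivator kept in the cytoplasm when phosphorylated by AMPK or SIK kinases, had 62.7, 56.6, 35.8 and 37.6 (log2 ratio -0.70), and -1.65 in tags per peak with both detrained libraries lower, over called lengths of 8221 bp in the control and 4244 bp in the detrained table. Tbc1d4, a regulator of glucose transporter traffic, had 58.7, 69.3, 40.5 and 43.8 (log2 ratio -0.60), with overlap in tags per peak (-0.11). Mark3, another kinase activated by LKB1, had 76.2, 77.2, 57.7 and 47.0 (log2 ratio -0.56), with overlap in tags per peak (-0.098). Of these 6, Crtc2 alone kept its side by both measures, but its shorter detrained call also lowers its tags per peak. That peak is annotated as intron and centred upstream, at -2457 bp from the Crtc2 start.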

How the data were processed

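H3K27ac ChIP-seq of quadriceps was analysed from 2 peak tables, 1 per group. Reads had been placed on mm10 by the authors using Bowtie, who limited tags to 1 per position, called histone-style peaks with HOMER on both H3K27ac libraries of a group against its input, and annotated each to the nearest start. The deposited pooled signal is the tags of both libraries in a peak per 10000000, and the deposited log2 values are regularized log values per library, normalized within a table and shrunken for weak peaks. Columns of the authors' own comparison with input (log2 fold change, p-value and adjusted p-value) were not used. Columns C2 and C3 were assigned to the control group only, since the labels number these samples otherwise.

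The pooled tags were shared between libraries in proportion to library total and 2 to the power of the log2 value. Density was (tags + 0.5) per kb of called peak per 10000000, compared as log2, and gene values were summed tags. Shared peaks overlapped singly with at least 50% of each covered. The SD within groups was pooled over both groups. It rests on the shrunken log values, while differences between groups rest on pooled tags, so it can be too small. No count test was made, since the deposited values are not counts, and the tables, normalized separately, were not tested against each other.

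The members and lists were chosen with earlier results of these data known. Named were all 9 genes, the 3 largest rises and 3 largest falls of the pathway list among genes whose groups did not overlap, and the 3 genes nearest to the member with the most peaks. Gene bodies, starts and promoter windows came from RefSeq on GRCm38.p6, where all 9 genes matched. Alternatives covered scaling, centring, peak length, pseudocount, overlap, distance, the choice of peaks and the omission of single libraries. The estimate of tags per library and the density ratios were tested on simulated tables. The pairing of peaks and the motif search were tested on made examples. The simulated log2 values were not shrunken as the deposited ones are, and the other steps were not tested in this way. Python 3.11.15, numpy 2.4.6, pandas 2.3.3 and matplotlib 3.10.9 were used.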

Additional observations from a re-analysis of the deposited data

How the results depend on the processing

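No paired analysis was possible because C2 and C3 do not match the numbers in the labels and no test between the tables was made. The median log2 ratio at the shared peaks kept its direction in every alternative, as did the median over the 9 genes. Leaving out each library in turn gave -0.19 to -0.09 for the shared peaks, 12 to 18 of 21 with the groups apart, 2 to 6 above and 9 to 13 below, and -0.18 to -0.038 for the genes, the value nearest 0 being without C3. With a single library left in a group, fewer values can overlap. The number above, 1, became 3 with tags in all peaks as the scale, 2 with centring on all shared peaks, 2 with 5 tags added, 0 with the deposited log2 values as tags and 4 in tags per peak. With at least 80% of each peak covered 5 of 12 were below. Among peaks not annotated as promoter 5 of 14 were apart, 0 above and 5 below. These 14 include the peaks over the starts of Prkaa2, Prkab2 and Stk11. In tags per peak the sign of the ratio turned at 10 of 21 shared peaks, and of those with the groups apart in density it turned at Prkaa1 (0.25) and the Fmo5 peak of Prkab2 (0.084). Per kb of covered length it turned to -0.96 for Prkaa1, 0.17 for Prkaa2 and 0.13 for Camkk2, and Camkk2 was at 0.053 with its strongest peak alone. Of the 9 shared peaks with the groups apart, 3 kept their side in all alternatives, and none of 7 genes did so in summed tags. The 3 were the starts of Prkab2 and Prkag3 and the downstream start of Prkag2. Omitting a library or limiting overlap, distance or called length could not change the side of such a peak. The share of all shared peaks that kept their side was not computed. Added after seeing the data were a limit on the difference in called length, which left 16 shared peaks, 6 below and 1 above, and the use of peaks in the gene body, which gave 0.10 for Prkab1. Shares over all shared peaks were computed only for density as first defined and for tags per peak. The other counts given here thus have no background beside them. Depth limits what can be said of peaks listed in a single table with few tags.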

Other observations

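The 2 control libraries were not alike across the genes. In summed tags C3 was the higher control library at Prkaa2, Prkab1, Prkab2, Prkag1, Prkag3 and Stk11, with 2180 against 1671 tags at Prkaa2, while C2 was the higher at Prkaa1, Prkag2 and Camkk2. Over the 21 shared peaks C3 was above C2 at 13, and the median absolute log2 difference was 0.21 between the control libraries and 0.11 between the detrained libraries. Over all shared peaks these were 0.17 and 0.15.

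Some peaks inside these genes were given to others by nearest start. Inside the Prkag2 body the control table held a peak of 32.6 pooled tags that was annotated to Rheb, and inside the Camkk2 body both tables held a peak annotated to P2rx4, with 26.2 and 17.6 pooled tags.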
